A study of Rattus norvegicus with 10 samples.

Results

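The genes described here are those of the rat major histocompatibility complex (MHC), named RT1 in this species, together with genes that cut, carry and load the peptides its molecules display. They were chosen by symbol: every probe set whose platform annotation lists a single gene that starts with RT1- or is B2m, Cd74, Ciita, Nlrc5, Tap1, Tap2, Tapbp, Tapbpl, Psmb8, Psmb9, Psmb10, Psme1, Psme2, Erap1, Ctss or Ifi30. The rule found 52 probe sets of 33 genes among 31042 probe sets on the array. Of these, 31 probe sets belong to 18 RT1 genes, and 15 of the 16 other names were found. The exception, Tapbpl, was not analysed here, and 6 probe sets that list an RT1 gene beside other genes were left out.

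RNA from the left ventricle of male rats (Sprague-Dawley, 250 to 300 g) was hybridised to Affymetrix rat arrays 3 days after gene transfer. The comparison is between 5 samples that received GATA-4, a transcription factor that drives heart muscle genes, and 5 that received LacZ, which encodes a bacterial enzyme and served as control, so both groups went through gene transfer and no sample without it is compared. Age, gene vehicle and site of injection were not used here, as no label states them, and Sprague-Dawley is an outbred stock. Groups follow the source label, since every sample title names GATA-4. Array numbers 1 to 5 name the arrays within a group and pair nothing.

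Every nucleated cell shows peptides on MHC class I, a heavy chain held by the light chain B2m. Those peptides are cut by the proteasome, pumped into the endoplasmic reticulum by the Tap1-Tap2 transporter, trimmed by Erap1 and loaded with the help of tapasin (Tapbp). Interferon replaces the catalytic subunits of the proteasome with inducible ones, which makes the immunoproteasome. Class II molecules instead load peptides from the endosome and are made mainly by macrophages, dendritic cells and B cells, where Ciita switches their genes on, while Nlrc5 does so for class I genes. In a heart, most class II is found on resident and entering leukocytes.

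All values below are log2 of the deposited signal after quantile normalization, differences are GATA-4 minus LacZ on that scale, and a probe set is said to have risen or fallen only where limma's Benjamini-Hochberg adjusted p, taken over all 18625 probe sets tested, was under 0.05. Arrays differed in brightness before normalization: the trimmed mean intensity was 250.1 to 314.7 on the LacZ arrays, 250.4 to 329.8 on GATA-4 arrays 2 to 5, and 142.9 on GATA-4 array 1. The transferred gene itself, read by the brighter Gata4 probe set, lay at 10.65 ± 0.13 with LacZ and 11.44 ± 0.14 with GATA-4 (SD, n = 5 each), a rise of 0.79 (SE 0.09, limma adjusted p = 0.00131) with no overlap between the groups, and whether it reads the transferred or the rat's own transcript was not tested. Heart muscle genes were among the brightest on all arrays, with Tnnt2 at 13.65 in both groups and Myh6 at 13.51 and 13.49. No label says that each sample came from a separate animal, so p-values measure the spread between these samples.

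Of the 52 probe sets, 45 were bright enough to be tested, and 11 of these rose with GATA-4 and none fell. That is 24.4% of the members tested, where 3.04% of all 18625 probe sets rose and 2.27% fell. Taking the brightest probe set for each gene, 9 of 32 member genes rose, against 3.71% of the 10688 genes tested. At an unadjusted limma p under 0.05, 22 members were higher and 0 were lower, where 11.7% of all probe sets tested were lower. The difference was above 0 in 40 of the 45, with a median of 0.38, where 46.2% of all probe sets tested lay above 0 with a median of -0.03. Every GATA-4 array lay above every LacZ array for 13 members, or 28.9%, against 3.7% of all probe sets tested. The 11 that rose were found in every role but that of transactivator: Psmb8, Psmb9 and Psme2 of the proteasome, Tap1, Tap2 and Tapbp of the transport and loading machinery, 2 probe sets of the class I gene RT1-S3, the class II genes RT1-DMa and RT1-Da, and Ifi30 of the endosome. The 7 probe sets too dim to test are the only one of RT1-N2 and a second or further one of RT1-Bb, RT1-A3, RT1-CE5, Erap1, Tap1 and Psme1.

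**Figure D1:**
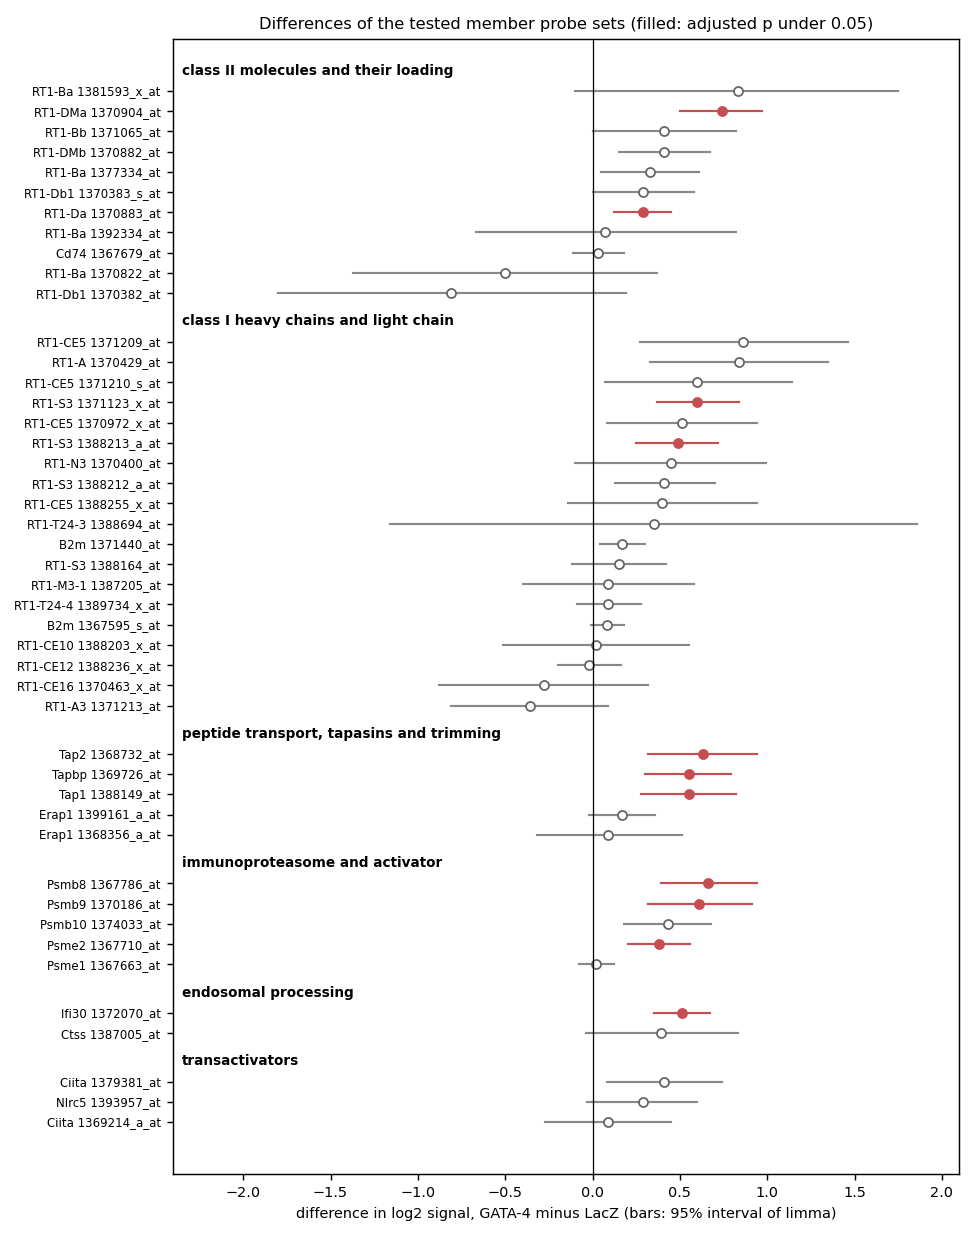
Log2 difference (GATA-4 minus LacZ, 5 arrays each) of the 45 member probe sets tested, grouped by role, with limma's 95% interval as a bar; filled red points passed an adjusted p of 0.05. The filled points lie between 0.29 and 0.74, none lies below 0, and the longest bars belong to RT1 probe sets.

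How many members rose depended on single arrays. Leaving out GATA-4 array 1, the dim array, gave 20 members higher, with 7.86% of all probe sets higher in that fit, and the 11 were among them. Leaving out LacZ array 3 gave 3 (0.762% of all probe sets), LacZ array 5 gave 4 (1.27%), LacZ array 4 and GATA-4 array 3 gave 5 each (1.52% and 1.26%), and LacZ array 1 gave 6 (1.47%). Leaving out LacZ array 2 gave 10 (2.29%) and each of GATA-4 arrays 2, 4 and 5 gave 9 (2.39%, 1.90% and 1.87%). The 3 that rose without LacZ array 3 were RT1-DMa, Ifi30 and the RT1-S3 probe set 1371123_x_at, and these 3 rose with any single array left out. RT1-Da rose only in the fit without GATA-4 array 1 and missed the threshold in the other 9 fits, with adjusted p-values from 0.0702 to 0.135. The scaling of the arrays mattered as well: median centring in place of quantile normalization gave 5 members higher (1.73% of all probe sets) and ended the calls of Ifi30, Psme2, Psmb9, Tap1, RT1-Da and the RT1-S3 probe set 1388213_a_at, and the signals as deposited gave 0 (0.0483%). The arrays at the ends of the range were often the same: GATA-4 array 3 was the highest of the 10 in 11 of 31 RT1 and 11 of 21 other member probe sets, and LacZ array 3 was the lowest in 5 and 9.

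**Figure D2:**
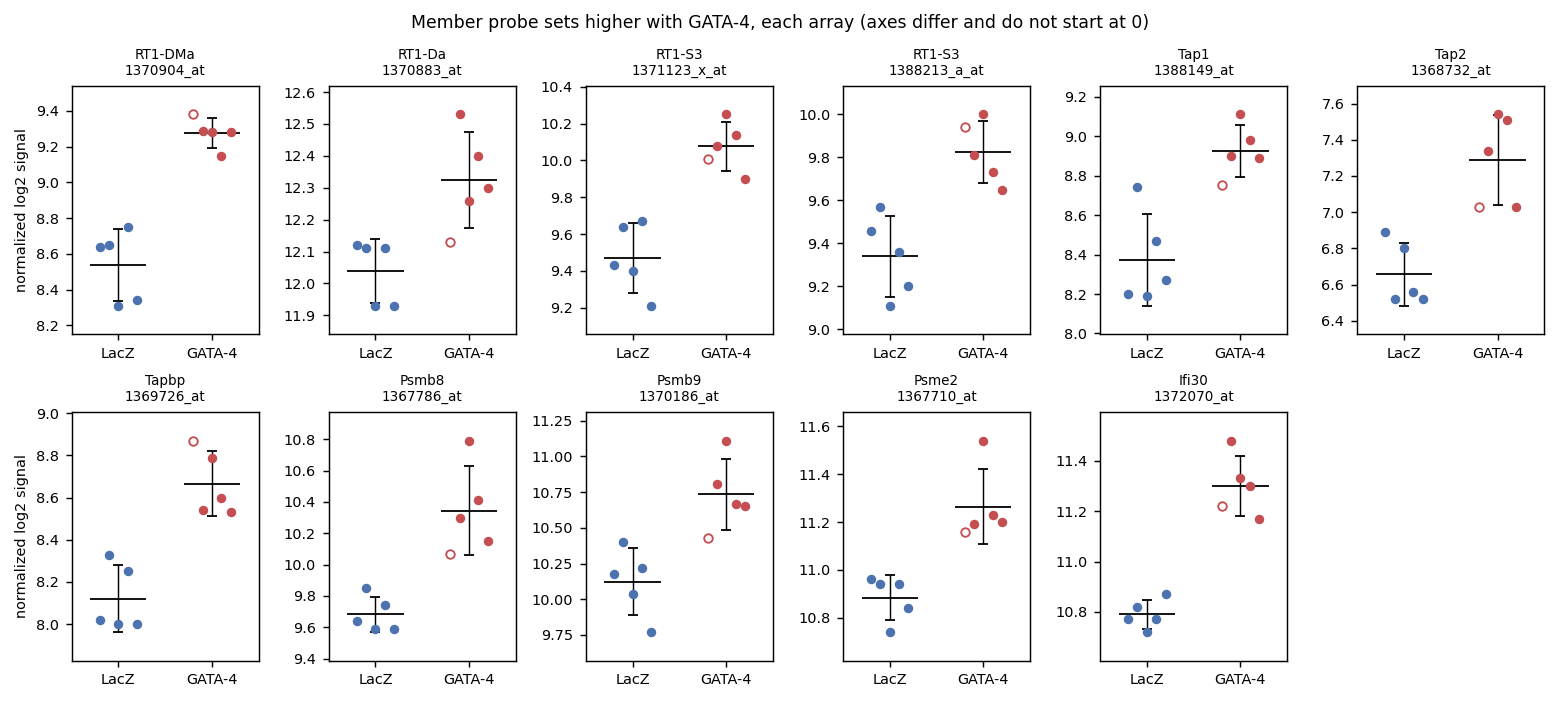
Normalized log2 signal on each array for the 11 member probe sets that rose, with LacZ in blue and GATA-4 in red; the open circle is GATA-4 array 1, the line is the mean and the bar the SD of 5 arrays. In every panel all 5 GATA-4 arrays lie above all 5 LacZ arrays, narrowly for Tap1 and for RT1-Da, where the highest LacZ array reads 12.12 and the lowest GATA-4 array 12.13.

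Promoter stretches are printed beside the members they belong to. They were read from RefSeq on build GRCr8, in a window from 250 bases before to 50 after each annotated start, which was found for 28 of the 33 genes. The 4 short patterns below were searched on both strands, and overlapping matches were counted: GAAANNGAAA, the letters of an interferon-stimulated response element (ISRE), TTCNNNGAA, those of a gamma-activated site (GAS), CCAAT, bound by the factor NF-Y, and AGCAAC, from the X box of class II promoters, bound by RFX. Positions count from 0 at the start, capitals mark the match, and a gene's own strand is shown from 5′ to 3′.

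Of the 5 proteasome probe sets tested, 3 rose, with a median of 0.43. Psmb8 encodes the immunoproteasome subunit with chymotrypsin-like activity. It read 9.64, 9.85, 9.59, 9.74 and 9.59 on LacZ arrays 1 to 5 and 10.07, 10.30, 10.79, 10.41 and 10.15 on GATA-4 arrays 1 to 5. The lowest GATA-4 array thus lay above the highest LacZ array, and GATA-4 array 3 stood highest. The rise was 0.66 (SE 0.13), or 1.58-fold, with a limma adjusted p of 0.0148, lost without LacZ array 3 (adjusted p = 0.057).

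Psmb9, the inducible subunit that takes the place of the caspase-like Psmb6, read 10.18, 10.40, 10.04, 10.22 and 9.77 with LacZ and 10.43, 10.81, 11.11, 10.67 and 10.65 with GATA-4. GATA-4 array 1 lay just above the highest LacZ array, and the other GATA-4 arrays lay well clear. The rise was 0.61 (SE 0.13, limma adjusted p = 0.0248). It was lost without LacZ arrays 1, 3, 4 or 5 or GATA-4 array 3, with adjusted p-values from 0.05 to 0.0774, and with median centring (0.53, adjusted p = 0.0611). Psmb10, the trypsin-like inducible subunit, read 8.51 to 8.72 on the LacZ arrays and 8.81 to 9.41 on the GATA-4 arrays, also without overlap. Its difference of 0.43 (SE 0.12) had a limma adjusted p of 0.0506 and so did not pass. Without GATA-4 array 1 it was 0.45 with an adjusted p of 0.0186, and without GATA-4 array 4 it was 0.49 with 0.0468. It did not pass with any other single array left out (adjusted p from 0.0808 to 0.117) or with median centring (0.39, adjusted p = 0.116). Of 11 settings that did not leave out a single array alone, it passed in 4.

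The cap that opens the proteasome, PA28, is built from Psme1 and Psme2, of which Psme2 rose. It read 10.96, 10.94, 10.74, 10.94 and 10.84 with LacZ and 11.16, 11.19, 11.54, 11.23 and 11.20 with GATA-4. Array 3 stood alone at the top of the GATA-4 group, and the other 4 lay close together. The rise was 0.38 (SE 0.08, limma adjusted p = 0.0248), lost without LacZ array 3, 4 or 5 (adjusted p = 0.0817, 0.052 and 0.064) and with median centring, with GATA-4 array 1 (0.26, adjusted p = 0.174) or without it (0.30, adjusted p = 0.0612). Psme1, the partner subunit, lay at 12.81 ± 0.01 with LacZ and 12.83 ± 0.08 with GATA-4, a difference of 0.02 with a 95% interval from -0.08 to 0.12 (limma adjusted p = 0.845). Its second probe set was too dim to test.

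The promoters of Psmb8, Psmb10 and Psme2 are shown because each holds the ISRE letters close to the start. The Psmb8 stretch (chr20:4657012-4657065, minus strand) reads from 34 bases before the start to 19 after it, the Psmb10 stretch (chr19:50743273-50743395, minus strand) holds the letters at 2 places, and the Psme2 stretch lies at chr15:33052765-33052834 on the minus strand.
Psmb8: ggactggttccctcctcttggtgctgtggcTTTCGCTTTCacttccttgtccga
Psmb10: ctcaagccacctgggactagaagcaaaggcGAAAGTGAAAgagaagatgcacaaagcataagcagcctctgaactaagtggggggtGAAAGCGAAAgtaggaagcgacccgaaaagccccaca
Psme2: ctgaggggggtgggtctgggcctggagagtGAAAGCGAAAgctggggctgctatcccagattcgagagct

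Each inducible subunit takes the place of a constitutive one: Psmb8 that of Psmb5 and Psmb10 that of Psmb7. The constitutive partners did not pass the test, with a difference of -0.06 for Psmb5 (limma adjusted p = 0.63) and 0.09 for Psmb7 (adjusted p = 0.625). Among 13 constitutive 20S core genes tested, 0 changed in limma, 1 was higher at an unadjusted p under 0.05, and the median difference was 0.06. Psmb6, the partner of Psmb9, was not analysed here.

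The gap between partners was then compared within each array. This cancels a constant factor on a whole array, but not what quantile normalization does differently to bright and dim probe sets. Psmb8 minus Psmb5 was -2.05, -1.63, -1.96, -1.84 and -2.08 on the LacZ arrays and -1.52, -1.19, -0.90, -0.99 and -1.32 on the GATA-4 arrays. All GATA-4 arrays lay above all LacZ arrays, the dim array 1 closest to them. The change in the gap was 0.73 (SE 0.14), with an exact two-sided permutation p of 0.00794, the smallest that 5 against 5 arrays allow, or 0.0159 adjusted over the 2 pairs compared.

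For Psmb10 minus Psmb7 the values were -2.63, -2.44, -2.44, -2.50 and -2.55 with LacZ and -2.58, -2.03, -1.94, -2.17 and -2.14 with GATA-4. Here 4 of the 5 GATA-4 arrays lay above all LacZ arrays, and array 1 lay among them. The change was 0.34 (SE 0.12, exact two-sided permutation p = 0.0397, also 0.0397 adjusted over the 2 pairs). It lost the threshold without LacZ array 1 (0.31, adjusted exact p = 0.0556) and without GATA-4 array 2, 3, 4 or 5 (0.30, 0.28, 0.34 and 0.33, adjusted exact p = 0.0635 each), and was 0.44 without the dim array (adjusted exact p = 0.00794). These gaps are log2 signal differences between different probe sets, so only their change between groups can be read, not their size. With the signals as deposited, the change was 0.76 for Psmb8 minus Psmb5 (adjusted exact p = 0.0317) and 0.42 for Psmb10 minus Psmb7 (adjusted exact p = 0.0397).

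**Figure D3:**
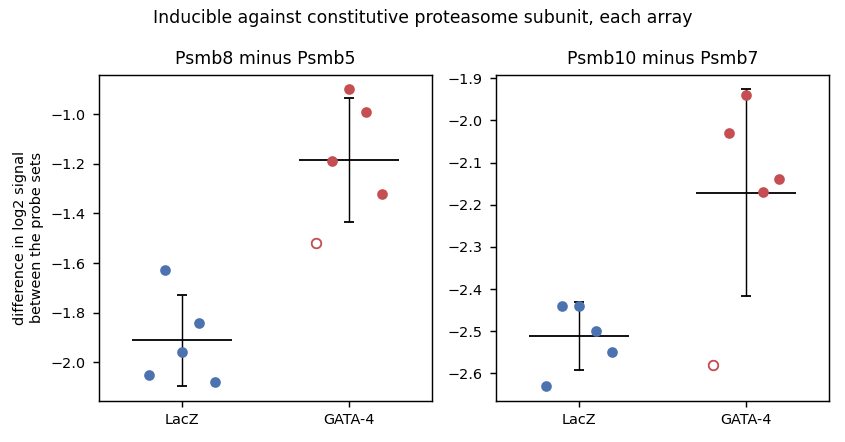
Log2 signal of an inducible proteasome subunit minus that of the constitutive subunit it replaces, on each of 5 LacZ (blue) and 5 GATA-4 (red) arrays; the open circle is GATA-4 array 1, the line the mean and the bar the SD. For Psmb8 minus Psmb5 all GATA-4 arrays lie above all LacZ arrays, and for Psmb10 minus Psmb7 4 of 5 do.

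Both subunits of the peptide transporter and tapasin rose, 3 of the 5 probe sets tested in this role (median 0.55). Tap1, which pairs with Tap2 to form the transporter, read 8.20, 8.74, 8.19, 8.47 and 8.27 with LacZ and 8.75, 8.90, 9.11, 8.98 and 8.89 with GATA-4. The groups came close to touching, with LacZ array 2 just below GATA-4 array 1. The rise was 0.55 (SE 0.12, limma adjusted p = 0.0265), and its size stayed between 0.51 and 0.64 when single arrays were left out, and with median centring it was 0.52 (adjusted p = 0.0524). A second Tap1 probe set was too dim to test (mean 4.22 with LacZ and 3.75 with GATA-4).

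Tap2 read 6.89, 6.52, 6.80, 6.56 and 6.52 with LacZ and 7.03, 7.34, 7.54, 7.51 and 7.03 with GATA-4. GATA-4 arrays 1 and 5 lay just above LacZ array 1, and the other 3 stood higher. The rise was 0.63 (SE 0.14, limma adjusted p = 0.0278), with a range of 0.56 to 0.69 over the fits that left out an array. Tap1 and Tap2 were each lost in 7 of those 10 fits, Tap1 without LacZ arrays 1, 3, 4 or 5 or GATA-4 arrays 3, 4 or 5 (adjusted p from 0.0529 to 0.087) and Tap2 without LacZ arrays 2 to 5 or GATA-4 arrays 2, 3 or 4 (from 0.0508 to 0.0739).

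Tapbp, the bridge between the transporter and an empty class I molecule, read 8.02, 8.33, 8.00, 8.25 and 8.00 with LacZ and 8.87, 8.54, 8.79, 8.60 and 8.53 with GATA-4. The dim array was the highest of the 10 here. The rise was 0.55 (SE 0.11, limma adjusted p = 0.0212) and was lost without LacZ array 1, 3 or 5 or GATA-4 array 3, with adjusted p-values of 0.0541, 0.0724, 0.0582 and 0.0541. Erap1, the aminopeptidase that trims peptides to length, did not pass: its brightest probe set differed by 0.17 with a 95% interval from -0.02 to 0.36 (limma adjusted p = 0.289) and the second by 0.09 (adjusted p = 0.816).

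The Tap1, Tap2 and Tapbp promoters are printed because all 3 genes rose and all hold the ISRE letters, in Tapbp as 2 overlapping matches. Their stretches lie at chr20:4668625-4668694, chr20:4652298-4652367 and chr20:4967858-4967933, all on the minus strand.
Tap1: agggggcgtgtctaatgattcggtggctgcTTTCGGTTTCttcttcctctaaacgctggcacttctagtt
Tap2: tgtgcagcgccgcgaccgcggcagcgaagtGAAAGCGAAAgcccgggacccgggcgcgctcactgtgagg
Tapbp: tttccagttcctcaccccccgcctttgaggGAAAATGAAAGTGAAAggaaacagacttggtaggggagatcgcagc
Tap1 and Psmb9 start 457 bases apart on opposite strands. The Tap1 match lies 336 to 345 bases from the Psmb9 start, outside the Psmb9 window, which holds none of the ISRE letters itself.

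Class I readings depended on the probe set. The light chain B2m was near the top of the scale and moved little: its brighter probe set read 13.46, 13.45, 13.43, 13.45 and 13.45 with LacZ and 13.40, 13.57, 13.65, 13.53 and 13.51 with GATA-4. GATA-4 array 1 was the lowest of the 10 and the other 4 the highest. The difference was 0.08 (SE 0.04, limma adjusted p = 0.274, and 0.11 with an adjusted p of 0.0471 without that array), and the second B2m probe set differed by 0.17 (adjusted p = 0.12).

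Of the heavy chain probe sets tested, only 2 annotated to RT1-S3, a class I gene outside the classical RT1-A locus, rose. Its probe set 1371123_x_at read 9.43, 9.64, 9.40, 9.67 and 9.21 with LacZ and 10.01, 10.08, 10.25, 10.14 and 9.90 with GATA-4, and 1388213_a_at read 9.46, 9.57, 9.11, 9.36 and 9.20 with LacZ and 9.94, 9.81, 10.00, 9.73 and 9.65 with GATA-4. Neither pair of groups overlapped. The rises were 0.60 (SE 0.11, limma adjusted p = 0.0114) and 0.49 (SE 0.11, adjusted p = 0.0265), the second lost without LacZ array 1, 3, 4 or 5 or GATA-4 array 3 (adjusted p from 0.0503 to 0.0866) or with median centring (0.42, adjusted p = 0.0687). The gene's other probe sets differed by 0.41 (adjusted p = 0.0863, and 0.51 with 0.00791 without GATA-4 array 1) and 0.15 (adjusted p = 0.525), so its 4 probe sets gave a range of 0.15 to 0.60. Probe sets whose names end in x_at, s_at or a_at can bind related transcripts, and the class I genes are near copies of each other, so the signal of an RT1 class I probe set cannot be assigned to a single gene with certainty. Of the class I probe sets with such endings, 2 of 11 tested rose, and of the plain ones 0 of 8, against 3.04% of all probe sets tested. The only plain RT1-S3 probe set, 1388164_at, is the one that differed by 0.15.

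The RT1-S3 promoter (chr20:2675386-2675455, plus strand) and that of B2m (chr3:129549150-129549219, plus strand) also hold the ISRE letters, and are shown as the class I counterparts of the stretches above.
RT1-S3: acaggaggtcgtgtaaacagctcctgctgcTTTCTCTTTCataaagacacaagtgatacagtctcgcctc
B2m: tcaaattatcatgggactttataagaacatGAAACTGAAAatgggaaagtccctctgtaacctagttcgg

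RT1-A, the classical class I gene, separated the groups without passing the test. It read 7.45, 8.96, 8.68, 8.57 and 7.83 with LacZ and 9.07, 9.17, 9.22, 9.15 and 9.07 with GATA-4. The GATA-4 arrays were nearly equal, while LacZ arrays 1 and 5 lay far below the other LacZ arrays. The difference was 0.84 (SE 0.24, limma adjusted p = 0.0596) and passed without LacZ array 2 (1.00, adjusted p = 0.0343) or GATA-4 array 1 (0.86, adjusted p = 0.036). The brightest of the 4 tested RT1-CE5 probe sets behaved similarly, with LacZ array 1 lowest at 7.34 and a difference of 0.86 (SE 0.28, adjusted p = 0.0877, and 1.05 with 0.0146 without GATA-4 array 1), and the others differed by 0.40 to 0.60. RT1-N3 differed by 0.45, RT1-T24-4 and RT1-M3-1 by 0.09 each, RT1-CE10 by 0.02, RT1-CE12 by -0.02, RT1-CE16 by -0.28 and RT1-A3 by -0.36, none of them past the threshold. In all, 2 of 19 class I probe sets rose (10.5%), with a median of 0.35.

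RT1 probe sets scattered more between arrays of the same group than probe sets of like brightness. The median within-group SD was 0.36 over the 27 RT1 probe sets tested and 0.18 over the 18 other members, where all probe sets tested had 0.24. Compared with probe sets within 0.5 log2 of its own mean, the median RT1 probe set was more variable than 84.3% of them and the median other member more than 37.2%. Within-group SD was above that of 95% of such probe sets for 8 RT1 probe sets and for 1 other member, Ctss.

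In RT1-T24-3 and RT1-N2 the arrays fell into a low and a high set. RT1-T24-3 read 9.98, 10.37, 7.92, 10.41 and 7.99 on LacZ arrays 1 to 5 and 10.02, 11.00, 11.24, 8.07 and 8.11 on GATA-4 arrays 1 to 5. LacZ arrays 3 and 5 and GATA-4 arrays 4 and 5 thus formed a low set from 7.92 to 8.11, and the other 6 arrays lay at 9.98 or above. RT1-N2, too dim to test, read 4.82, 5.58, 2.84, 5.48 and 3.35 with LacZ and 5.43, 6.20, 5.97, 2.08 and 2.60 with GATA-4, with the same 4 arrays lowest. In RefSeq's order of protein-coding genes on chromosome 20 these genes lie close together, with RT1-S2, RT1-O1, RT1-N3, RT1-S3 and RT1-T24-4 between them, of which RT1-N3 read 6.24 to 6.82 on these 4 arrays and 6.81 to 7.87 on the others, while RT1-S3 and RT1-T24-4 showed no such step. Outside this stretch of chromosome 20, RT1-M3-1 read 7.68 to 7.90 on the same 4 arrays and 7.89 to 8.86 on the others. The low set holds 2 arrays of each group, and the groups' difference for RT1-T24-3 was 0.35 (SE 0.70, limma adjusted p = 0.81).

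LacZ array 1 stood apart in the RT1 genes. It was the highest or the lowest of the 10 arrays in 15 of 31 RT1 probe sets, highest in 6 and lowest in 9, but in 1 of the 21 other member probe sets. For GATA-4 array 3 these counts were 12 of 31 and 12 of 21, and the share over all probe sets was not counted. LacZ array 1 differed from it in being at the ends mainly in RT1 probe sets. LacZ array 1 read 11.41 for the dimmer RT1-Bb probe set, where the other 9 arrays read 1.01 to 5.88, and 9.81 for an RT1-Ba probe set, where the other LacZ arrays read 7.20 to 7.55. For RT1-A and the brightest RT1-CE5 probe set it was the lowest of all. RT1 genes are highly polymorphic and the stock is outbred, so a probe set can read both the amount of a transcript and how well an animal's allele matches the probes, and the share of each was not tested. Without LacZ array 1 the difference was 0.62 for RT1-A (limma adjusted p = 0.0978) and 0.64 for RT1-CE5 (adjusted p = 0.172).

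**Figure D4:**
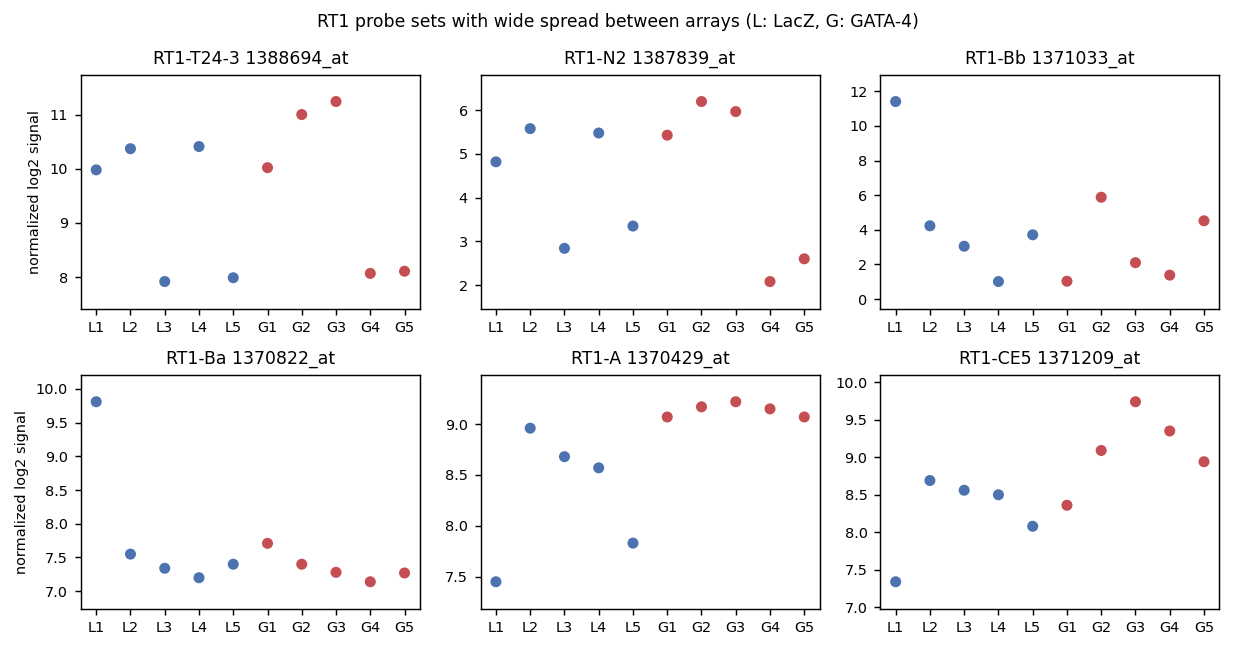
Normalized log2 signal of 6 RT1 probe sets on each array, L1 to L5 for LacZ (blue) and G1 to G5 for GATA-4 (red); vertical axes differ and do not start at 0. RT1-T24-3 and RT1-N2 are low on L3, L5, G4 and G5, and L1 is highest for RT1-Bb and RT1-Ba and lowest for RT1-A and RT1-CE5.

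Of the class II genes, RT1-DMa and RT1-Da rose. RT1-DMa, the alpha chain of the DM molecule that swaps a placeholder peptide for antigen, read 8.64, 8.65, 8.31, 8.75 and 8.34 with LacZ and 9.38, 9.29, 9.28, 9.15 and 9.28 with GATA-4. The GATA-4 arrays lay close together and all above the LacZ arrays, GATA-4 array 1 highest. The rise was 0.74 (SE 0.11), or 1.67-fold, with a limma adjusted p of 0.00645. Its partner chain RT1-DMb differed by 0.41 (SE 0.12, adjusted p = 0.0687), with 4 of 5 GATA-4 arrays above all LacZ arrays and array 1, at 9.95, among them, and it passed without that array (0.47, adjusted p = 0.0135).

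RT1-Da, the alpha chain of the main class II molecule, read 12.12, 12.11, 11.93, 12.11 and 11.93 with LacZ and 12.13, 12.53, 12.26, 12.40 and 12.30 with GATA-4, the dim array being level with the upper LacZ arrays. The rise was 0.29 (SE 0.08, limma adjusted p = 0.0481), and with median centring it was 0.17 and did not pass (adjusted p = 0.298). Cd74, the invariant chain that escorts class II to the endosome, was the brightest class II member and read 12.68, 12.73, 12.67, 12.73 and 12.53 with LacZ and 12.83, 12.82, 12.49, 12.69 and 12.67 with GATA-4. The groups lay within each other, and the difference was 0.03 with a 95% interval from -0.11 to 0.18 (limma adjusted p = 0.826). Its sign turned under other scalings of the arrays, to -0.04 with median centring.

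Of the other class II chains, RT1-Ba had probe sets that disagreed, and so had RT1-Db1, the chain that pairs with RT1-Da. The 4 of RT1-Ba differed by 0.83, 0.33, 0.07 and -0.50, with 0.33 for the brightest (limma adjusted p = 0.162, and 0.41 with 0.0295 without GATA-4 array 1), the 2 of RT1-Db1 by 0.29 (adjusted p = 0.226) and -0.81 (adjusted p = 0.329), and the tested probe set of RT1-Bb by 0.41 (adjusted p = 0.227). The negative values go with single arrays: LacZ array 1 for RT1-Ba, and for RT1-Db1 LacZ array 1 at 9.14 and GATA-4 array 1 at 5.24, where the other 8 arrays read 7.13 to 8.06. In all, 2 of 11 class II probe sets rose (18.2%), with a median of 0.29.

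The RT1-DMa promoter (chr20:4712335-4712429, minus strand) and that of RT1-Da (chr20:4515302-4515400, plus strand) are shown as those of the class II genes that rose. In capitals are CCAAT, which appears as its complement ATTGG, at 2 places in RT1-DMa, and in RT1-Da beside the X box letters AGCAAC.
RT1-DMa: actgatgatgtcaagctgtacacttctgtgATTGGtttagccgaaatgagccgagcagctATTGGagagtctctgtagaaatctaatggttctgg
RT1-Da: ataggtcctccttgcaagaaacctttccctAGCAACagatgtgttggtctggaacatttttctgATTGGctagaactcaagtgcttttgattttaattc

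Endosomal processing was represented by a reductase and a protease. Ifi30, also called GILT, which opens disulphide bonds of proteins in the endosome, had the smallest p of all members. It read 10.77, 10.82, 10.72, 10.77 and 10.87 with LacZ and 11.22, 11.48, 11.33, 11.30 and 11.17 with GATA-4. The lowest GATA-4 array lay well above the highest LacZ array. The rise was 0.51 (SE 0.07), or 1.42-fold, with a limma adjusted p of 0.00597. With median centring it was 0.39 and did not pass (adjusted p = 0.0557).

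Ctss, cathepsin S, which cuts the invariant chain, read 11.08, 10.98, 10.81, 11.07 and 11.14 with LacZ and 10.54, 11.91, 11.80, 11.45 and 11.35 with GATA-4. GATA-4 array 1 was the lowest of the 10 and the other 4 the highest. With all arrays the difference was 0.39 (SE 0.20, limma adjusted p = 0.272), and without GATA-4 array 1 it was 0.61 (adjusted p = 0.00393). Ctss also passed with each array weighted by its scatter (0.51, limma adjusted p = 0.012). The brightest RT1-CE5 and RT1-Ba probe sets passed in both of these fits as well, but their promoters hold no ISRE letters and are not printed. The Ctss promoter (chr2:185775330-185775399, plus strand) is shown because it holds the ISRE letters.
Ctss: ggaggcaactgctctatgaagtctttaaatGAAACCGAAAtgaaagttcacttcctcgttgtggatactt

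The transactivators read lower than the members as a whole and did not pass the test. Ciita, the switch of class II genes, read 6.80, 7.05, 6.71, 7.11 and 6.78 with LacZ and 6.90, 7.65, 7.11, 7.41 and 7.41 with GATA-4 in its brighter probe set. GATA-4 arrays 2, 4 and 5 lay above the LacZ arrays, array 3 level with the highest and array 1 among them. The difference was 0.41 (SE 0.15, limma adjusted p = 0.139, and 0.51 with an adjusted p of 0.0239 without GATA-4 array 1), and the other probe set differed by 0.09 (adjusted p = 0.797). Nlrc5, its counterpart for class I, read 6.30, 6.39, 6.21, 6.61 and 6.39 with LacZ and 6.95, 6.43, 6.87, 6.66 and 6.41 with GATA-4, and the groups overlapped. The difference was 0.29 (SE 0.15, adjusted p = 0.276). Of these 3 probe sets 0 rose in limma and 1 was higher at an unadjusted p under 0.05.

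The genes that rose are neighbours on chromosome 20 in part, but the rule itself picks RT1 genes and others that lie among them. In RefSeq's gene order, Tap2, Psmb8, Tap1, Psmb9, RT1-DMb and RT1-DMa follow each other with no other protein-coding gene between them. Of these 6 genes 5 rose, and RT1-DMb was the exception, where 10 of all 32 member genes with a tested probe set had one that rose. The genes on either side, RT1-DOb and Brd2l, are not members and were not read here. RT1-Db1, RT1-Ba and RT1-Bb, which also follow each other, had no probe set that rose. Of the 28 member genes with a RefSeq promoter, 21 start on chromosome 20 and 8 of these had a probe set that rose. Of the 7 on other chromosomes, Psme2 and Ifi30 rose, and Psme1, Psmb10, B2m, Cd74 and Ctss did not pass, nor did Erap1, Ciita and Nlrc5, whose starts were not analysed here.

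Across the member promoters, the ISRE letters were present in 10 of 28 member promoters and in 1034 of 27457 rat promoters of the same length (3.77%). By outcome, they were found in 6 of the 10 genes with a probe set that rose (Psmb8, Psme2, Tap1, Tap2, Tapbp and RT1-S3) and in 4 of the 18 without (B2m, Ctss, Psmb10 and RT1-N3). RT1-S3 is counted by annotation, though its probe sets that rose cannot be assigned to it with certainty. None of the class II promoters searched held them, and neither did that of Ifi30. CCAAT was present in 19 of 28 member promoters, against 37.7% of all, in 5 of the 10 genes with a probe set that rose and 14 of the other 18. The X box letters were found in 5 of 28 (14.7% of all promoters) and the GAS letters in 2 of 28 (8.68%). These counts describe letters in a short window and were not tested, since the members share duplicated sequence, and promoters of RT1-DMb, RT1-A, Erap1, Ciita and Nlrc5 were not analysed here.

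**Figure D5:**
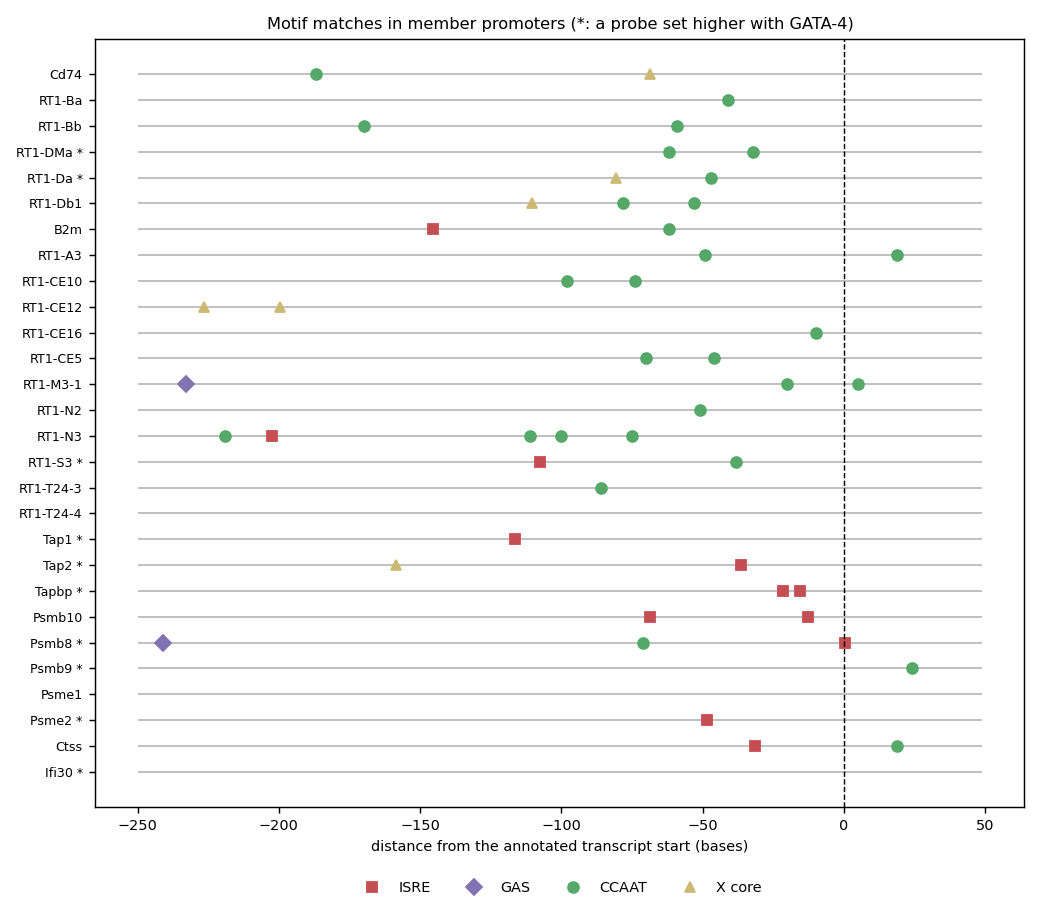
Places of ISRE, GAS, CCAAT and X box core letters in 28 member promoters, plotted by distance in bases from the annotated start (dashed line) over 250 bases before to 50 after; a star marks genes with a probe set that rose. ISRE letters lie in 6 of the 10 starred genes and are absent from the class II genes, where all 6 genes shown hold CCAAT letters.

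Genes of the pathway beyond the members were read from lists, by the brightest probe set of each gene. Of 13 interferon signalling genes tested 3 rose, 0 fell and the median was 0.22, against 3.71% of all genes tested: Stat2, a partner in the factor that binds the ISRE (0.64, limma adjusted p = 0.0091), the myeloid factor Irf8 (0.63, adjusted p = 0.0137) and the kinase Jak2 (0.67, adjusted p = 0.027). Irf1, which drives several member genes after interferon gamma, read 9.54 to 10.08 with LacZ and 9.83 to 10.38 with GATA-4 and differed by 0.27 (adjusted p = 0.274). Ifng, interferon gamma itself, was too dim to test (mean 2.49 with LacZ and 3.88 with GATA-4). With single arrays left out, Jak2 missed the threshold in 7 and Irf8 in 1 of 10 fits, and Stat2 in 0.

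Among folding factors that class I shares with other proteins of the endoplasmic reticulum, of 10 tested 5 rose and 0 fell (median 0.39), among them calreticulin, Calr (0.44, limma adjusted p = 0.00418), Pdia6 (0.34, adjusted p = 0.0112), Hsp90b1 (0.39, adjusted p = 0.0205) and the translocon subunit Sec61a1 (0.47, adjusted p = 0.0205). Of 14 other endosomal genes 3 rose, the proteases Ctsz (0.78, adjusted p = 0.00661), Lgmn (0.37, adjusted p = 0.0243) and Ctsb (0.24, adjusted p = 0.0278), with a median of 0.12. Of 8 other proteasome activators and peptidases the activator Psme4 rose (0.36, adjusted p = 0.0265), with a median of -0.01, and of 4 class I-like genes outside the RT1 names the protein C receptor Procr (0.69, adjusted p = 0.0202). Of all genes tested 3.71% rose, and the calls in the last 2 lists are of single genes. None of the 8 factors that bind class II promoters changed in limma (median -0.07, 1 lower at an unadjusted p under 0.05), nor did 4 costimulation ligands (median 0.50, 3 higher and 1 lower at an unadjusted p under 0.05). With single arrays left out, the threshold was missed in 6 of 10 fits by each of Lgmn, Ctsb and Psme4, in 3 by Hsp90b1, in 2 by Sec61a1 and by Procr, and in 0 by Pdia6, Calr and Ctsz. With median centring Pdia6 (0.21, adjusted p = 0.18), Hsp90b1 (0.28, adjusted p = 0.137), Lgmn (0.25, adjusted p = 0.174), Ctsb (0.15, adjusted p = 0.293) and Psme4 (0.24, adjusted p = 0.147) did not pass.

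Markers of some leukocytes were also higher with GATA-4, where 3.71% of all genes tested rose. Of 19 macrophage and monocyte markers 10 rose and 0 fell (median 0.60), with the smallest adjusted p-values for Tyrobp (1.24, limma adjusted p = 0.00074), Csf1r (0.54, adjusted p = 0.00819), Cd14 (0.86, adjusted p = 0.0136) and Cd68 (0.69, adjusted p = 0.014). Their mean deviation from the 10-array average was -0.47 to -0.17 on the LacZ arrays, 0.03 on GATA-4 array 1 and 0.25 to 0.47 on GATA-4 arrays 2 to 5. The same measure over the 45 members was -0.36 to 0.02 with LacZ, 0.01 on GATA-4 array 1 and 0.04 to 0.31 on arrays 2 to 5. Of 5 neutrophil markers tested 3 rose, Lcn2, Csf3r and Il1r2, with a median of 1.32, of which Csf3r missed the threshold in 8 and Il1r2 in 7 of 10 such fits. Their mean deviation ran from -1.42 to 0.09 with LacZ, where array 5 was the highest, and was 0.81 to 1.35 on GATA-4 arrays 2 to 5, but -1.04 on GATA-4 array 1, among the LacZ arrays. On LacZ array 5 the mean over all 45 members was the lowest of the 10 arrays. That of the 2 endosomal members was -0.13 there, the highest of the LacZ arrays. The part of these cells in the members' rise was not tested, and in bulk tissue more cells of a type cannot be told apart from more RNA per cell.

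No tested marker of the other antigen-presenting cells passed. Of 7 dendritic cell markers 0 changed in limma (median 0.05, 2 higher at an unadjusted p under 0.05), and of 3 B cell markers 0 (median -0.21, 1 lower). Some markers were too dim to test. Among these the dendritic cell receptor Flt3 read 2.83 to 4.87 with LacZ and 5.71 to 6.16 with GATA-4, with no overlap. The B cell gene Ms4a1, which encodes CD20, went the other way, at 4.54 to 5.22 with LacZ and 2.58 to 4.51 with GATA-4, also with no overlap. Cd79b (mean 1.77 with LacZ and 2.00 with GATA-4) and Cr2 (2.24 and 2.67), both of B cells, were dimmer and overlapped. The groups also overlapped for Blk (4.82 and 4.84) and Bank1 (4.94 and 5.12) of B cells and Lamp3 (3.24 and 3.10) of dendritic cells. How many untested probe sets over the whole array lack overlap was not counted. Among 15 T and NK cell markers 0 changed (median 0.30, 3 higher at an unadjusted p under 0.05). Cardiomyocyte markers had a median of -0.04 over 12, where Ttn fell by 0.27 (limma adjusted p = 0.00957, and 0.0634 with median centring), fibroblast markers -0.07 over 10, where Dpt fell by 0.31 (adjusted p = 0.0452, missed in 8 of 10 such fits, and 0.0743 with median centring), endothelial markers -0.10 over 10 and smooth muscle markers 0.04 over 7, the last 2 lists with no call in limma. Of all probe sets tested 2.27% fell.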

How the data were processed

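Probe set intensities on a linear scale were deposited by the authors for the 10 arrays, from GCOS per the submitters' processing notes. Its version, algorithm and scaling are not stated in the sources used here. Symbols came from GEO's platform annotation, updated through RefSeq. Intensities were taken to log2, quantile normalized (31042 probe sets, controls left out), floored at 0 and tested where the mean lay above the 40th percentile (18625 probe sets). Limma 3.58.1 in R 4.3.3 (lmFit, eBayes with trend) compared 5 GATA-4 with 5 LacZ arrays without covariates, with Benjamini-Hochberg adjustment over all probe sets tested. Single gaps used exact permutation over 252 assignments. The number of arrays limits the precision.

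Members, lists and tests were chosen with earlier results of these data known. Values on every array are given for up to 5 probe sets that rose in each role, the brightest that did not, and the transactivators, and up to 4 changed genes are named from each other list. Psmb10, RT1-A, RT1-CE5, RT1-DMb and the probe sets shown for their scatter were singled out after their values were seen. Alternatives covered scaling, an added 16, floor, filters, trend, robust fit, array weights (statmod 1.5.0) and left-out arrays. In simulated data on 18625 probe sets, limma recovered 6% of 1.25-fold, 38% of 1.5-fold, 70% of 2-fold and 90% of 3-fold changes, with 7 of 109 calls false. The simulated noise was drawn independently for each probe set and array. These rates therefore leave out shifts that many probe sets share on an array, and may not hold for the real arrays. Sequences are RefSeq's, build GRCr8.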

Additional observations from a re-analysis of the deposited data

Results flagged for a closer look

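Single arrays far from the others of their group were looked for in 154 groups of 5 arrays (77 probe sets), where chance gives about 1 in 20, and 8 were found. Of the members, LacZ array 1 read 9.81 for an RT1-Ba probe set (others 7.20 to 7.55), GATA-4 array 1 read 5.24 for the dimmer RT1-Db1 probe set (others 7.32 to 7.58), LacZ array 3 read 1.03 for the untested RT1-A3 probe set (others 3.54 to 4.18), and GATA-4 array 3 read 11.54 for Psme2 (others 11.16 to 11.23). Outside the members, GATA-4 array 1 read 10.25 for Sec61a1 (others 9.88 to 9.91) and 6.60 for Csf3r (others 7.43 to 7.74), LacZ array 5 read 9.64 for Cd14 (others 9.15 to 9.28), and LacZ array 2 read 11.06 for Psmb7 (others 11.14 to 11.16). GATA-4 array 1, the dim array, accounts for 3 of the 8.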

How the results depend on the processing

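No member fell in any setting tried. With the signals as deposited, 0 members rose (0 genes), with 9 probe sets changed in all. Median centring gave 5 members (4 genes) and, over all probe sets, 322 higher and 401 lower where quantile normalization gave 566 and 422. Median centring without GATA-4 array 1 gave 14 member genes and 2616 probe sets. Array weights gave 19 members (17 genes) and 2890 probe sets, no filter 619 probe sets and no intensity trend 539. Leaving out GATA-4 arrays 4 and 5, whose sample numbers lie apart, gave 3 members (2 genes), 201 probe sets and a Psmb10 minus Psmb7 gap of 0.33 (adjusted exact p = 0.0893). With single arrays left out, the ranges were 3 to 20 members, 2 to 18 member genes, 174 to 2849 probe sets, 0.66 to 0.81 for Psmb8 minus Psmb5 and 0.28 to 0.44 for Psmb10 minus Psmb7. Beyond the smaller number of arrays in some settings, the cause was not tested. Of the 45 members tested, 40 lay above 0 as reported and 35 to 41 in the settings that tested the same 45. Of the probe sets followed singly through the settings, signs turned for Cd74, Psme1 and Psmb7 (-0.04, -0.06 and -0.02 as deposited, -0.04, -0.07 and -0.03 with median centring, -0.15, -0.14 and -0.10 with centring without GATA-4 array 1), the brighter B2m probe set (-0.11 in the last), the dimmer Ciita probe set (-0.07 without GATA-4 arrays 4 and 5), and, with single arrays left out, Cd74 (-0.0043 to 0.09, below 0 without LacZ array 5 and, at -0.0005, without GATA-4 array 1) and Psme1 (-0.01 to 0.05, below 0 without GATA-4 array 3). No paired analysis was possible because no label carries a replicate number that both groups share. Low signal limits what can be read of the 7 untested members. The Ciita probe sets (mean over all arrays 7.09 and 6.47) and that of Nlrc5 (6.52) were bright enough to be tested. Tap2, which rose, had a mean of 6.97.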
